A study of Arabidopsis thaliana with 41 samples.

Results

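The clade A protein phosphatases 2C of Arabidopsis thaliana are a family of 9 genes: ABI1 (AT4G26080), ABI2 (AT5G57050), HAB1 (AT1G72770), HAB2 (AT1G17550), HAI1 (AT5G59220), HAI2 (AT1G07430), HAI3 (AT2G29380), PP2CA (AT3G11410) and AHG1 (AT5G51760). They were taken as a whole family by locus identifier, with none left out for its values, though earlier results of these data were known. All 9 were among the 21164 loci measured. Rosette leaf RNA was hybridised to 41 oligonucleotide arrays. The arrays come from 7 natural accessions, Ag-0, Tamm-2, Got-22, Bil-5, Ull2-5, Omo2-3 and Eden-1, each in dry and in wet soil. Dry pots were let down step by step to about 50% of their available water on day 5, and wet pots were kept near 90%. All plants grew singly in pots of ceramic medium under a 10 h photoperiod, at 23 °C by day and 18 °C by night, and carry no transgene or mutation named in the labels. Each combination of accession and water level had 3 arrays, but for 2 of dry Ag-0, so 20 arrays were dry and 21 wet. Replicates are described as biological in the design text; the sources used here give neither plant age at harvest nor any pooling of plants.

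Abscisic acid is the hormone that closes stomata and switches on protective genes when water runs short. Its receptors (PYR1 and the PYL proteins), once they hold the hormone, dock onto clade A phosphatases and block them. Without hormone the phosphatases keep SnRK2 kinases dephosphorylated and inactive, so that neither the ABF transcription factors nor the guard cell channels downstream are activated. The phosphatases are thus brakes on the pathway, and the transcripts of several are known to be induced by the hormone they restrain. ABI1 and ABI2, HAB1 and HAB2, and HAI1, HAI2 and HAI3 are sets of close paralogs, while PP2CA, also called AHG3, stands nearest to AHG1, which is known for its action in seeds.

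Array values are on a log2 scale, so a difference of 1 is a doubling of signal, and differences are given as dry minus wet. Each array correlated with its group mates at 0.951 to 0.991 on average. By limma's array quality weight, which is low for an array far from its group, 3 arrays stood under 0.5. They were the third dry arrays of Bil-5 (0.271) and of Tamm-2 (0.327), and wet replicate 2 of Bil-5 (0.36). The lower quartile of all values was 4.38, a level near the array floor. HAI2 lay below it on 18 arrays, HAI3 on 17 and AHG1 on 1, and the other 6 phosphatases on 0. Signals of different loci come from different probes, so their levels were not compared with each other, only their changes between soils. Leaf markers averaged 11.41 to 12.31 in the dry groups and 11.12 to 11.92 in the wet groups over 7 measured genes. Root markers (10 genes, 4.45 to 4.57 in dry and 4.51 to 4.55 in wet groups) and seed maturation markers (11 genes, 4.02 to 4.07 in dry and 4.01 to 4.09 in wet groups) were low, with 6 of the root and 10 of the seed genes below that quartile.

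Under mild soil drying, 3 of the 9 phosphatase transcripts rose and 1 fell. PP2CA rose by 0.93 ± 0.10 (SE), HAI2 by 0.62 ± 0.14 and HAI1 by 0.28 ± 0.06, and HAB1 fell by 0.38 ± 0.13. Limma's adjusted p was 2.82e-07 for PP2CA, 0.00203 for HAI2, 0.00178 for HAI1 and 0.0303 for HAB1. Among all loci tested, 12.2% rose and 11.5% fell under the same rule, an adjusted p of at most 0.05. The median change of the 9 phosphatases was -0.01, against -0.00 over all loci, while their median absolute change was 0.233, against 0.0767 over all loci. The counts were the same without the 3 arrays of quality weight under 0.5, a setting chosen after seeing the data. In whole leaves, fewer cells of a type and less RNA per cell cannot be told apart.

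**Figure D1:**
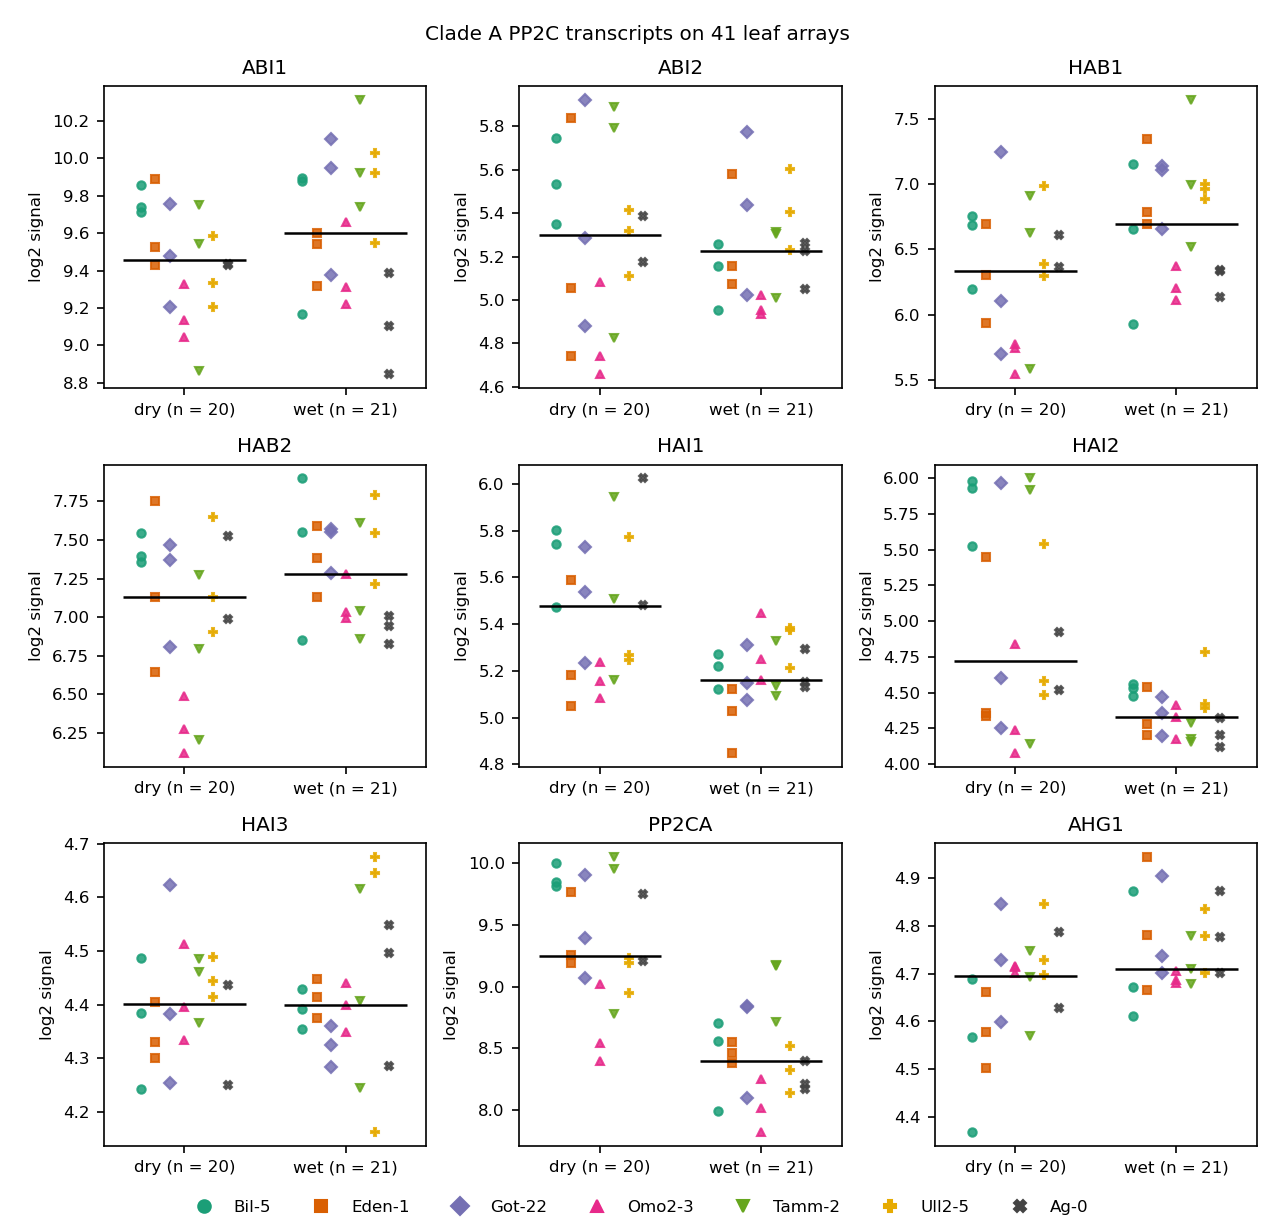
Log2 signal of each of the 9 phosphatase transcripts (vertical axes, each with its own range) on the 20 dry and 21 wet arrays; symbols and colours mark the 7 accessions and black bars the medians. PP2CA lies between 8.39 and 10.05 on dry arrays and between 7.82 and 9.17 on wet arrays, and HAI2 reaches 6.00 on dry arrays, against 4.79 on wet arrays.

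PP2CA, a phosphatase that restrains abscisic acid signalling in leaves as well as seeds and also acts on ion channels, changed the most. Its lowest, median and highest signals were 8.39, 9.25 and 10.05 on dry arrays, against 7.82, 8.39 and 9.17 on wet arrays. The ranges overlapped, but 19 of 20 dry arrays lay above the wet median and 0 of 21 wet arrays lay above the dry median. The change corresponds to 1.90-fold, with a 95% interval of 0.72 to 1.14 on the log2 scale. By p-value PP2CA ranked 34 of 21164 loci, and by the size of its rise 77. It was higher in dry soil in 7 of 7 accessions, by 0.58 in Tamm-2 at the least and by 1.47 in Bil-5 at the most.

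In Bil-5, PP2CA stood at 9.81, 10.00 and 9.85 on dry arrays, against 8.70, 7.99 and 8.56 on wet arrays. This difference of 1.47 ± 0.26 passed within that accession alone (limma adjusted p = 0.00209), where 2.86% of loci rose; in a fit on the Bil-5 arrays alone it did not (limma adjusted p = 0.162). In Ag-0 the dry arrays read 9.21 and 9.75, against 8.21, 8.39 and 8.17 on wet arrays. That difference of 1.22 ± 0.29 missed the threshold (limma adjusted p = 0.0533). All dry arrays lay above all wet arrays in 6 of 7 accessions. The exception was Tamm-2, with 9.96, 8.78 and 10.05 on dry arrays, against 9.17, 9.17 and 8.71 on wet arrays: dry replicate 2 lay among the wet values. The share of all loci with every dry array above every wet array was 6.78% in Got-22, 7.47% in Omo2-3, 7.95% in Eden-1, 8.92% in Bil-5, 10% in Ull2-5 and 15.3% in Ag-0, where the dry arrays number 2.

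**Figure D2:**
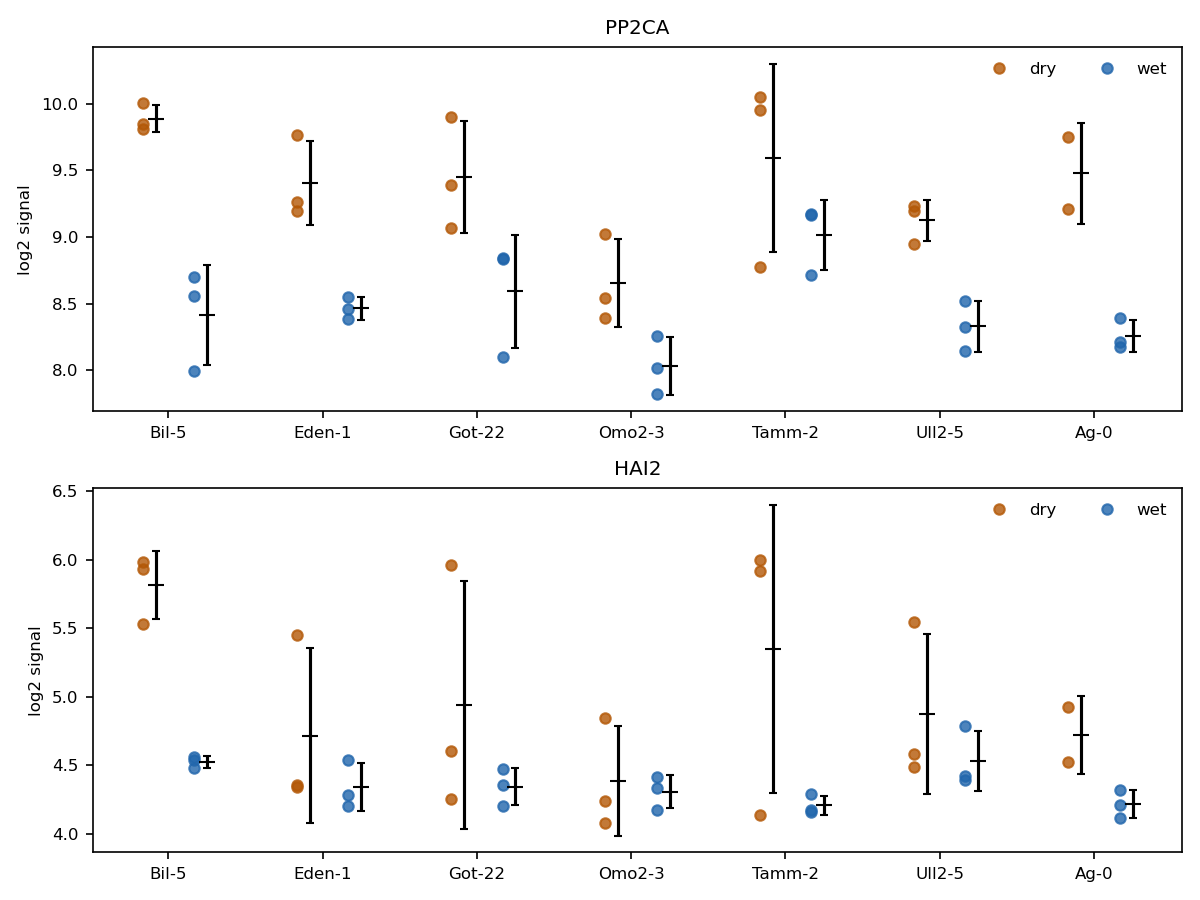
Log2 signal of PP2CA (upper panel) and HAI2 (lower panel) on each array by accession, with dry arrays left of wet arrays; points are arrays and bars the group mean ± SD (n = 3, or 2 for dry Ag-0). The dry Bil-5 mean was 9.89 for PP2CA and 5.82 for HAI2, and the widest HAI2 group was dry Tamm-2, with an SD of 1.05.

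HAI2, one of the phosphatases named for their strong induction by abscisic acid, was near the floor in wet soil and high on some dry arrays but not on others. Its lowest, median and highest signals were 4.08, 4.72 and 6.00 on dry arrays, against 4.12, 4.33 and 4.79 on wet arrays. The low ends of both groups coincided, and the dry group reached further up. The rise corresponds to 1.54-fold, with a 95% interval of 1.25 to 1.88. It is not exact in size, since the wet means of 5 accessions (Eden-1, Got-22, Omo2-3, Tamm-2 and Ag-0, 4.21 to 4.34) lay below the lower quartile of all values. The accession means were higher in dry soil in 7 of 7 accessions, with 0.08 in Omo2-3 as the smallest difference and 1.29 in Bil-5 as the largest.

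In Bil-5, HAI2 read 5.98, 5.93 and 5.53 on dry arrays, against 4.56, 4.54 and 4.48 on wet arrays. The 3 dry arrays all lay above the wet arrays, as for 8.92% of all loci in Bil-5 (1.29 ± 0.38, limma adjusted p = 0.0462). This call was close to the threshold: it was lost in 28 of 49 alternative settings, with an adjusted p of up to 0.144 without Bil-5 dry replicate 1 and 0.0734 without the arrays of low quality weight. In Tamm-2, by contrast, dry arrays read 6.00, 4.14 and 5.92, against 4.16, 4.29 and 4.17 on wet arrays. In Got-22 they read 5.96, 4.61 and 4.25 in dry soil, against 4.20, 4.47 and 4.36 in wet soil. In Eden-1 dry arrays read 4.34, 5.45 and 4.36, against 4.20, 4.54 and 4.28 on wet arrays. In these accessions the dry arrays thus lay on both sides of a wide gap, and no difference within these 3 passed (limma adjusted p = 0.124 in Tamm-2, 0.672 in Got-22 and 0.93 in Eden-1). In Ag-0 the 2 dry arrays, 4.52 and 4.92, lay above the wet arrays, 4.12, 4.32 and 4.21, as for 15.3% of all loci there. That difference did not pass (limma adjusted p = 0.736).

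HAI1, also known as SAG113 and named both for induction by the hormone and for its rise in senescing leaves, had a smaller change. On dry arrays its lowest, median and highest signals were 5.05, 5.48 and 6.02, against 4.85, 5.16 and 5.45 on wet arrays. Of 20 dry arrays, 16 lay above the wet median, and 0 of 21 wet arrays lay above the dry median. The rise corresponds to 1.21-fold, with a 95% interval of 1.11 to 1.33. Accession means were higher in dry soil in 6 of 7 accessions, up to 0.56 in Ag-0, and the exception was Omo2-3, where dry minus wet was -0.13 ± 0.17. All dry arrays lay above all wet arrays in Bil-5 (5.47, 5.74 and 5.80 in dry soil, against 5.27, 5.22 and 5.12 in wet soil) and in Ag-0 (5.48 and 6.02 in dry soil, against 5.13, 5.29 and 5.15 in wet soil). HAI1 passed in no accession alone.

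HAI3, the third paralog, stayed near the floor in both soils. The lowest, median and highest HAI3 signals were 4.24, 4.40 and 4.62 on dry arrays, against 4.16, 4.40 and 4.67 on wet arrays, and the groups overlapped throughout. Dry minus wet was -0.01 ± 0.04 (95% interval -0.10 to 0.07, limma adjusted p = 0.851), a value that at this signal can say little about a low transcript.

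Changes were also compared between paralogs. Whether 2 paralogs responded differently was tested on the difference of their log2 values on each array, with the dry and wet labels shuffled inside each accession (100000 permutations, two-sided, adjusted over 6 pairs). The measured change was larger for HAI2 than for HAI1: the change of HAI1 minus that of HAI2 was -0.34 (permutation adjusted p = 0.00867), below 0 in 6 of 7 accessions. That call ended without Bil-5 (-0.26, permutation adjusted p = 0.0665). HAI2 itself lay below the lower quartile of all values on 18 arrays. Probes of 2 loci can also differ in how far they respond. The part of the floor or of the probes in any difference between paralogs was not tested. The other 3 of the 6 pairs set HAI1 and HAI2 against HAI3, and PP2CA against AHG1. HAI3 and AHG1 lay near the array floor with little spread, so these differences mostly carry the rises of HAI1, HAI2 and PP2CA already given and are not read as a difference in response.

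HAB1, a broadly expressed phosphatase and a textbook partner of the receptors, was the only member that fell. Its lowest, median and highest signals were 5.54, 6.33 and 7.24 on dry arrays, against 5.93, 6.69 and 7.64 on wet arrays. The ranges overlapped widely, with 4 of 20 dry arrays above the wet median and 17 of 21 wet arrays above the dry median. The change corresponds to 0.767 of the wet signal, with a 95% interval of 0.638 to 0.922. Accession means were lower in dry soil in 6 of 7 accessions, with the lowest difference of -0.68 in Tamm-2. In Ag-0 dry minus wet was 0.22 ± 0.38. The call was lost in 11 of 56 alternative settings: without 6 single arrays (adjusted p of up to 0.0576, for Ag-0 dry replicate 3) and with Omo2-3 (0.0995), Eden-1 (0.0948), Ull2-5 (0.0696), Got-22 (0.0586) or Tamm-2 (0.0584) left out, all by limma. The 6 arrays were Ag-0 dry replicate 3, Got-22 dry replicate 3, Eden-1 dry replicate 3, Tamm-2 dry replicate 2, Tamm-2 wet replicate 1 and Bil-5 wet replicate 1.

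HAB2, its paralog, leaned the same way without passing. Its lowest, median and highest signals were 6.12, 7.13 and 7.75 on dry arrays, against 6.83, 7.28 and 7.90 on wet arrays, and 8 of 20 dry arrays lay above the wet median. Dry minus wet was -0.23 ± 0.11 (95% interval -0.45 to -0.02, limma adjusted p = 0.113). Its largest difference was in Omo2-3, with 6.49, 6.28 and 6.12 on dry arrays, against 6.99, 7.28 and 7.03 on wet arrays (-0.81 ± 0.27, limma adjusted p = 0.418). All dry arrays thus lay below all wet arrays, as for 9.51% of all loci there. The change of HAB1 minus that of HAB2 was -0.15 (permutation adjusted p = 0.105), which passed in some settings with arrays left out.

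ABI1 and ABI2, the founding members of the family through their dominant hormone-insensitive mutants, did not pass. ABI1 had a lowest, median and highest signal of 8.86, 9.46 and 9.89 on dry arrays, against 8.85, 9.60 and 10.31 on wet arrays. Its groups overlapped almost completely, and dry minus wet was -0.15 ± 0.08 (95% interval -0.32 to 0.02, limma adjusted p = 0.217). The accessions leaned to both sides, from -0.61 in Tamm-2 to 0.32 in Ag-0. ABI2 had 4.66, 5.30 and 5.92 on dry arrays, against 4.93, 5.22 and 5.78 on wet arrays. Its dry minus wet was 0.06 ± 0.10 (95% interval -0.14 to 0.26, limma adjusted p = 0.72). The change of ABI1 minus that of ABI2 was -0.21 (permutation adjusted p = 0.0283), below 0 in 5 of 7 accessions. The call was fragile: it ended without Tamm-2 (-0.10, permutation adjusted p = 0.256), Ull2-5 (0.0784), Got-22 (0.0669) or Bil-5 (0.0665). It also ended without Eden-1 dry replicate 2 (permutation adjusted p = 0.0589) or Eden-1 wet replicate 1 (0.0512). With labels swapped only within same-number pairs of an accession it ended too (permutation adjusted p = 0.0558).

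AHG1, whose protein escapes inhibition by most receptors and acts mainly in seeds, was low in these leaves. Its lowest, median and highest signals were 4.37, 4.70 and 4.85 on dry arrays, against 4.61, 4.71 and 4.94 on wet arrays. Dry minus wet was -0.08 ± 0.03 (95% interval -0.15 to -0.02, limma adjusted p = 0.0673), with the dry mean below the wet mean in 6 of 7 accessions. The seed maturation genes measured beside it, among them the storage proteins CRA1, CRU2 and CRU3, had 10 of 11 means below the lower quartile of all values, and of these 11 genes 0 rose and 0 fell.

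**Figure D3:**
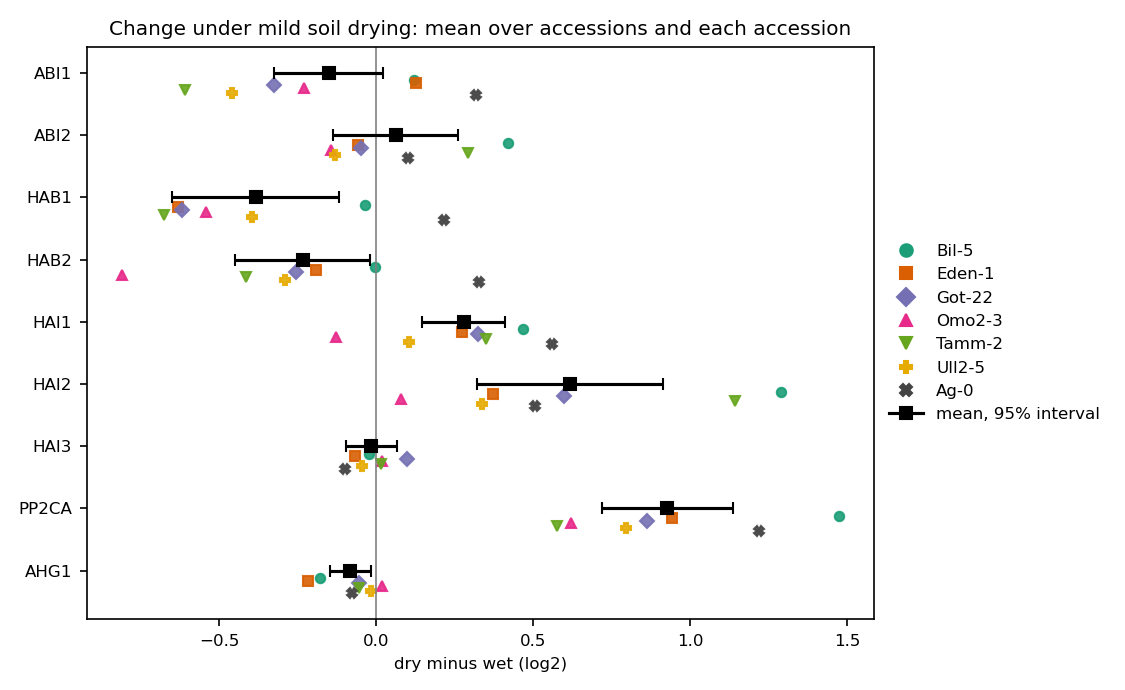
Dry minus wet difference (log2, horizontal axis) of each of the 9 phosphatase transcripts: black squares give the mean over 7 accessions with its 95% interval, and coloured symbols the 7 accessions. Every PP2CA and HAI2 accession value is above 0, while the ABI1 values run from -0.61 in Tamm-2 to 0.32 in Ag-0.

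Whether the 7 accessions responded differently was asked with an F test over their drying changes. It called 0 of 9 phosphatases, with 0 at an unadjusted p under 0.05. ABI1 came nearest (limma adjusted p = 0.872), and among all loci 0.0284% were called. Limma with array quality weights called 0 as well. Of the 63 combinations of phosphatase and accession, 13 had all dry arrays above all wet arrays, 4 had all below, and 46 overlapped. The share of all loci with all dry arrays below was 7.63% in Eden-1 and 9.51% in Omo2-3, where those 4 lay. The 2 combinations that passed limma were PP2CA and HAI2 in Bil-5. With 2 or 3 arrays on each side, differences of the size seen between accessions were not resolved.

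Averaged over both soils, 2 phosphatases differed in level between accessions. The F test over accession means called PP2CA (F = 5.64, limma adjusted p = 0.00373) and HAB2 (F = 3.73, limma adjusted p = 0.0272). Of all loci 31.4% passed, a share that 2 of 9 does not exceed, so the count does not set the family apart. For PP2CA the order of accession means over both soils was Tamm-2 (9.31), Bil-5 (9.15), Got-22 (9.02), Eden-1 (8.93), Ag-0 (8.87), Ull2-5 (8.73) and Omo2-3 (8.34). Over all 9 phosphatases, 54 gaps between neighbours in such orders were computed. The 1 gap over 2 standard errors was that of PP2CA between Ull2-5 and Omo2-3 (0.39, or 2.07 standard errors). The gaps were not tested or adjusted for their number, so this 1 is not read as a difference between neighbours. The other neighbours did not differ beyond their spread. Accessions carry sequence differences, and a low signal in an accession can come from weaker hybridisation to the probes as well as from less transcript; this was not tested.

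In Omo2-3, 3 of the 9 phosphatases were lower than in the other accessions. Set against the mean of the other 6 accessions, PP2CA averaged 8.34 in Omo2-3, which was -0.66 ± 0.14 from the mean of the others (limma adjusted p = 0.0033). HAB1 averaged 5.96 in Omo2-3 and 6.62 in the others (-0.65 ± 0.18, limma adjusted p = 0.0233). HAB2 averaged 6.70 in Omo2-3 and 7.25 in the others (-0.55 ± 0.15, limma adjusted p = 0.0198). Of all loci, 4.83% were lower in Omo2-3 under this rule. In Tamm-2, PP2CA averaged 9.31, against 8.84 in the other 6 (0.46 ± 0.14, limma adjusted p = 0.041, where 3.58% of loci were higher), but without the 3 arrays of low quality weight the difference was 0.33 (limma adjusted p = 0.139). Without Omo2-3 the F test called 0 phosphatases (limma adjusted p = 0.179 for PP2CA and 0.381 for HAB2). It also called 0 on wet arrays alone (limma adjusted p = 0.0512 for PP2CA and 0.36 for HAB2) and on dry arrays alone (0.143 for PP2CA and 0.142 for HAB2), where each accession has 2 or 3 arrays.

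The remaining orders of accession means held no neighbours apart beyond their spread. HAI2 ran from 5.17 in Bil-5 to 4.35 in Omo2-3, HAB1 from 6.75 in Ull2-5 to 5.96 in Omo2-3, and HAB2 from 7.43 in Bil-5 to 6.70 in Omo2-3. ABI1 ran from 9.71 in Bil-5 to 9.27 in Ag-0, ABI2 from 5.39 in Got-22 to 4.90 in Omo2-3, and HAI1 from 5.47 in Ag-0 to 5.14 in Eden-1. HAI3 and AHG1, near the floor, spanned 0.10 and 0.13.

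Arrays of the same accession and soil differed from each other in these transcripts, and 7 of the 9 phosphatases deviated together over the 41 arrays. Each array's value was taken as its deviation from the mean of its group, and the correlation of 2 phosphatases over the 41 deviations was tested by permutation within groups (100000 permutations, two-sided, adjusted over 36 pairs). Of 36 pairs, 21 were called and all 21 correlations were positive. These are all the pairs that can be formed among ABI1, ABI2, HAB1, HAB2, HAI1, HAI2 and PP2CA, with Pearson's r between 0.52 and 0.87. Of all other loci, from 2.73% (HAI1) to 5.98% (HAB2) had r of at least 0.5 with one of these 7. The share of all locus pairs called by this test was not computed. Within accessions, r was above 0 in 7 of 7 for PP2CA with ABI1 or HAI2. It was above 0 in 4 of 7 for ABI2 with HAB2 or HAI2, and HAB1 with PP2CA fell to -0.94 in 1 accession. By Spearman's rho 23 pairs were called, among them 3 negative ones with HAI3 or AHG1 (PP2CA with HAI3, ABI2 with AHG1 and HAB1 with AHG1), but not HAB1 with HAI1. Without the 3 arrays of low quality weight 20 were called by Pearson's r. Over 52 alternative settings the count ran from 15, with Tamm-2 left out, to 29. No pair with HAI3 or AHG1 was called by Pearson's r, and those transcripts lay near the floor.

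The tightest pair was ABI1 and PP2CA, with r = 0.87 and rho = 0.85 (permutation adjusted p = 0.00027 for r and 0.00024 for rho, n = 41 arrays). The correlation was 0.83 without the 2 arrays farthest from the median of ABI1, 0.89 over the dry arrays and 0.92 over the wet arrays. Among all 21163 other loci, PP2CA was the locus most like ABI1 by this measure, and ABI1 was in the second place for PP2CA. HAI2 and PP2CA followed, with r = 0.78 and rho = 0.75 (permutation adjusted p = 0.00027 for both), and r = 0.69 without the 2 farthest arrays. HAB2 and PP2CA had r = 0.76 and rho = 0.78 (permutation adjusted p = 0.00027 and 0.00024). As a background, 4.31% of all other loci had r of at least 0.5 with PP2CA and 3.7% with ABI1. The leading component of the variation within groups held 27.5% of it and correlated with the 9 phosphatases between -0.28 and 0.33; the part of RNA quality or time of harvest in these correlations was not tested.

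Split by soil, the correlations of HAI1 and HAI2 were higher over the dry arrays, a contrast that was not tested. For HAI1, r with ABI1, ABI2, HAB1, HAB2, HAI2 and PP2CA was 0.66 to 0.88 over the dry arrays, against -0.38 to 0.21 over the wet arrays. For HAI2, r was 0.91 over dry and 0.42 over wet arrays with ABI1, 0.88 and 0.19 with HAB1, 0.79 and 0.38 with HAB2, 0.83 and 0.53 with ABI2, and 0.90 and 0.53 with PP2CA. Both transcripts varied less on wet arrays. For HAI1 the pooled SD within groups was 0.276 on dry arrays, against 0.116 on wet arrays.

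**Figure D4:**
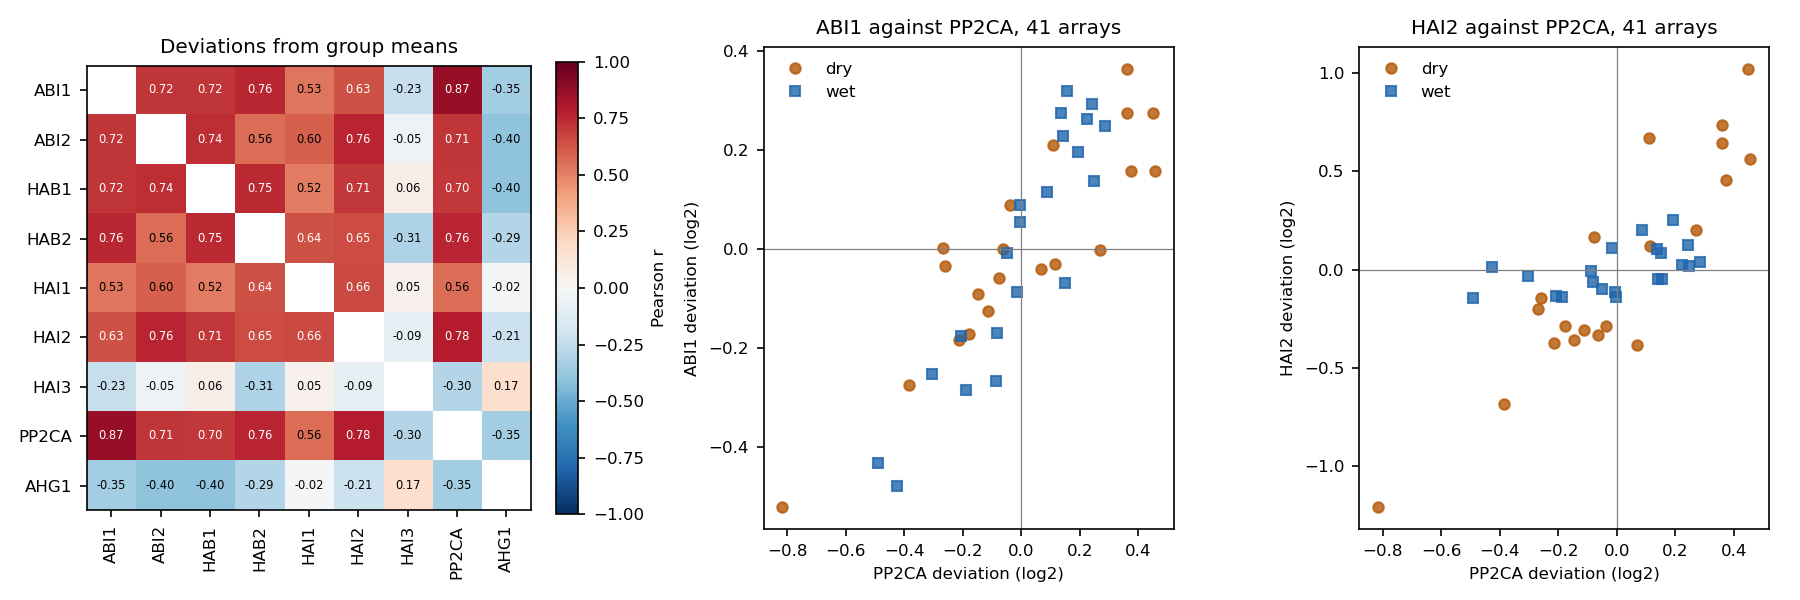
Left, Pearson's r between the deviations of each 2 phosphatase transcripts from their group means over 41 arrays (red positive, blue negative). Centre and right, the deviations (log2) of ABI1 and HAI2 against those of PP2CA on dry (circles) and wet (squares) arrays, with r of 0.87 for ABI1 and 0.78 for HAI2.

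The spread between arrays of a group differed by soil for HAI2 more than for nearly all loci. Its pooled SD within groups was 0.671 on dry arrays, against 0.136 on wet arrays, a ratio of 4.93, and 0.109% of all loci had a ratio at least as high. The median ratio of all loci was 1.05. For HAI1 the ratio was 2.38 (reached by 1.47% of loci), for ABI2 1.89 (5.35%), for PP2CA 1.47 (17%) and for ABI1 0.85 (73.1%). These ratios are descriptions without a test, and for HAI2 the wet values lay close to the floor, which narrows their spread. RAB18, a dehydrin gene and a standard marker of the hormone's action, had a ratio of 3.24, reached by 0.402% of loci. This was the highest ratio among the 19 measured marker genes of the hormone's action. The others ran down to 0.92 in COR15A, with 1.08 in LTP4 and 1.68 in RD29A and in RD29B.

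The dry arrays high in RAB18 and those high in HAI2 matched in some accessions and only in part in others. On dry Tamm-2 arrays RAB18 read 8.03, 4.81 and 8.33 on replicates 1, 2 and 3, where HAI2 read 6.00, 4.14 and 5.92. On dry Got-22 arrays RAB18 read 7.92, 5.97 and 6.07, where HAI2 read 5.96, 4.61 and 4.25. In Tamm-2 both transcripts were high on replicates 1 and 3, and in Got-22 both were highest on replicate 1. In Bil-5, RAB18 spread over 5.68, 6.79 and 4.78 on dry arrays where HAI2 read 5.98, 5.93 and 5.53. In Eden-1, RAB18 read 5.28, 6.18 and 6.13 on dry arrays, high on 2 of them, where HAI2 read 4.34, 5.45 and 4.36, high on 1. In Ull2-5, RAB18 was flat at 4.93, 4.88 and 4.84 on dry arrays where HAI2 read 5.54, 4.49 and 4.58. Both were still highest on the same array in Eden-1 (replicate 2) and in Ull2-5 (replicate 1). In Omo2-3, RAB18 read 4.94, 4.56 and 4.55 on dry arrays where HAI2 read 4.84, 4.08 and 4.24, so both were highest on replicate 1. In Ag-0, dry replicates 2 and 3 read 5.63 and 7.49 for RAB18, and 4.52 and 4.92 for HAI2. Over the 41 deviations the r of RAB18 was 0.79 with HAI2 and 0.74 with PP2CA, given here as a description. Of the 19 measured marker genes of the hormone's action, RAB18 had the highest r with both. The lowest r was 0.13 with HAI2, for NAP, and 0.003 with PP2CA, for AFP3.

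Loci outside the family whose values were most like a phosphatase were taken as the top 3 by r, over the 41 log2 values and over the 41 deviations, and no test was made. Over log2 values PP2CA was most like AT3G21670 (0.86), HB7 (0.83) and MSS3 (0.83); HB7 is a homeodomain factor induced by abscisic acid. HAI2 was most like BBX18 (0.84), AT1G77580 (0.81) and TMT2 (0.81). HAI1 was most like AT5G58120 (0.77), VTC2 (0.76) and, within the family, HAI2 (0.74). HAB1 was most like BLH1 (0.83) and HAB2 most like SEC (0.86).

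Over deviations, PP2CA was most like AT3G26380 (0.87), ABI1 (0.87) and AHP4 (0.84). ABI1 was most like PP2CA (0.87), ABF3 (0.82) and AT3G28690 (0.82), and HAI1 was most like LEA4-5 (0.78), a late embryogenesis abundant protein gene. HAI2 was most like AT5G43150 (0.86), NHX2 (0.83) and AT5G58740 (0.82), and ABI2 was most like NF-YB2 (0.86), AT3G16940 (0.80) and NHX2 (0.79). HAB1 was most like RHF2A (0.85) and HAB2 most like PUM5 (0.86). HAI3 was most like AT4G24300 (0.75) and AHG1 most like AT2G16840 (0.75).

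The receptors, which sit above the phosphatases, moved downward where they moved. Of 14 receptor genes 10 were measured, and of these 0 rose and 4 fell, against 12.2% and 11.5% of all loci. The group median was -0.24, against -0.00 over all loci. PYL6 averaged 6.22 ± 0.42 on dry arrays, against 6.98 ± 0.69 on wet arrays (SD, n = 20 and 21), and fell by 0.74 ± 0.17 (limma adjusted p = 0.00133). PYL5 fell by 0.65 ± 0.20, PYL8 by 0.48 ± 0.12 and PYL7 by 0.36 ± 0.12. PYL7 lost its call without Eden-1, Tamm-2 or Ag-0 dry replicate 2 (limma adjusted p of up to 0.0694), and PYL5 without Bil-5 or with array quality weights (up to 0.0924). PYR1, another receptor, differed by 0.08 ± 0.14 and did not pass. The difference between the receptors and the phosphatases was not tested.

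The kinases that the phosphatases hold in check moved both ways. Of 10 SnRK2 genes measured, 2 rose and 2 fell, with a median of -0.10. Of all loci 12.2% rose and 11.5% fell, so these counts do not set the kinases apart. OST1, the kinase of the guard cell response, had a lowest, median and highest signal of 5.86, 6.65 and 7.44 on dry arrays, against 5.55, 6.01 and 6.87 on wet arrays. The groups overlapped, and OST1 rose by 0.52 ± 0.09 (limma adjusted p = 7.23e-05). SnRK2.3, which with SnRK2.2 and OST1 forms the subgroup most strongly activated by the hormone, rose by 0.37 ± 0.08, while SnRK2.2 differed by 0.06 ± 0.05 (limma adjusted p = 0.5). SnRK2.5 fell by 0.31 ± 0.06 and SnRK2.4 by 0.18 ± 0.06, members of a subgroup that responds to osmotic stress with little dependence on the hormone. SnRK2.4 lost its call in 22 of 56 settings, 17 of them single arrays left out (limma adjusted p of up to 0.143, without Omo2-3).

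The group A bZIP factors, which the kinases activate, were lower where they moved. Of 8 listed 7 were measured, and of these 0 rose and 4 fell, against 12.2% and 11.5% of all loci. Their median was -0.15. ABF4 averaged 6.20 ± 0.47 on dry arrays, against 6.93 ± 0.41 on wet arrays, and fell by 0.75 ± 0.13 (limma adjusted p = 6.1e-05). ABF3 had a lowest, median and highest signal of 4.74, 4.98 and 6.08 on dry arrays, against 5.13, 5.57 and 6.39 on wet arrays, and fell by 0.57 ± 0.13. ABI5, known mainly from seeds, fell by 0.28 ± 0.10 and EEL by 0.15 ± 0.05. The EEL signal lay near the floor, with means of 4.20 on dry and 4.35 on wet arrays. ABI5 lost its call in 13 of 56 settings (limma adjusted p of up to 0.221, without Got-22), and EEL without Bil-5, Got-22, Omo2-3 or Ull2-5 (up to 0.127).

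**Figure D5:**
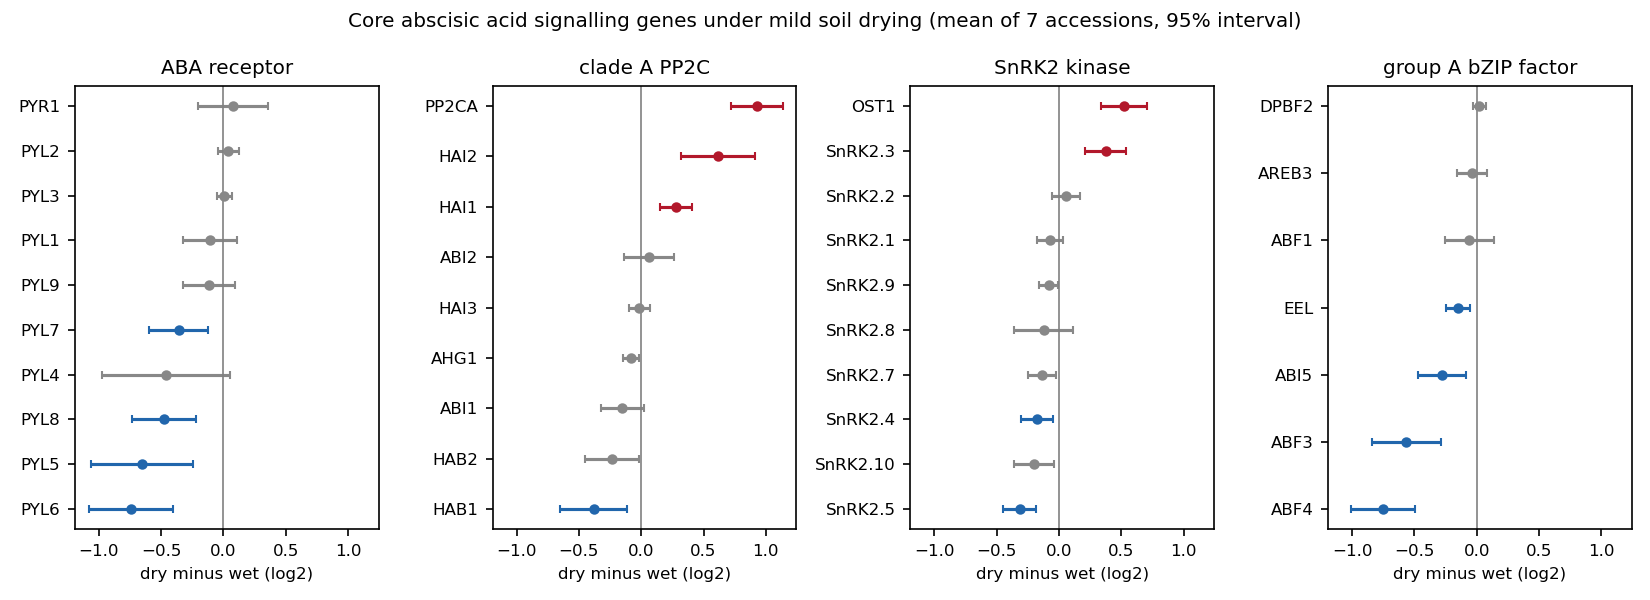
Dry minus wet difference (log2) with its 95% interval for the measured abscisic acid receptors, clade A phosphatases, SnRK2 kinases and group A bZIP factors, as means over 7 accessions. Red marks loci that rose and blue loci that fell at a limma adjusted p of at most 0.05, and grey the others. Of 10 receptors 0 rose, of 9 phosphatases 3, of 10 kinases 2 and of 7 bZIP factors 0, against 12.2% of all loci.

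Of genes that act on the phosphatases, 9 of 10 were measured, and of these 1 rose and 1 fell, against 12.2% and 11.5% of all loci, so the counts do not set the group apart. The receptor kinase gene FER rose by 0.19 ± 0.06, and PUB13, of a pair of U-box ubiquitin ligases that target ABI1, fell by 0.26 ± 0.08. Both calls ended when 1 accession was left out: FER without Bil-5 (limma adjusted p = 0.0938) or Eden-1, and PUB13 without Ull2-5 (0.0843) or Tamm-2. FER also failed to pass when Ag-0 dry replicate 3 was left out. PUB12, the other of the pair, differed by -0.08 ± 0.04 (limma adjusted p = 0.109).

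Among 11 partners or substrates of the phosphatases, 3 rose and 1 fell, against 12.2% and 11.5% of all loci. The outward potassium channel gene GORK rose by 0.40 ± 0.10 and the potassium channel gene AKT2, whose product PP2CA binds, by 0.34 ± 0.12. AKT2 lost its call in 23 of 56 settings, among them without the arrays of low quality weight (limma adjusted p = 0.0566). AFL1 rose by 0.26 ± 0.05 from signals near the floor, with means of 4.27 on dry and 4.01 on wet arrays. MPK6, a mitogen-activated protein kinase, fell by 0.33 ± 0.08. SLAC1, the anion channel of guard cells, differed by -0.05 ± 0.06 and did not pass.

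Marker genes of the hormone's action moved both ways. Of 21 listed 19 were measured, and of these 5 rose and 4 fell, against 12.2% and 11.5% of all loci. Their median was 0.06. RAB18 had a lowest, median and highest signal of 4.55, 5.66 and 8.33 on dry arrays, against 4.28, 4.87 and 5.55 on wet arrays. The upper end of the dry group reached well past the wet group, and RAB18 rose by 1.02 ± 0.23 (limma adjusted p = 0.00156). HB7 had 5.71, 7.01 and 8.17 on dry arrays, against 5.41, 6.26 and 7.12 on wet arrays, and rose by 0.68 ± 0.15. The lipid transfer protein genes LTP3 and LTP4 rose too, by 2.60 ± 0.35 and 3.04 ± 0.41, as did COR15A, by 1.06 ± 0.29. In the other direction, the NAC factor NAP fell by 1.48 ± 0.19, the calcium-binding RD20 by 0.89 ± 0.24, HB12, a close relative of HB7, by 0.58 ± 0.14, and RD22 by 0.56 ± 0.13. RD29A (-0.14 ± 0.26, limma adjusted p = 0.778), RD29B (0.06 ± 0.05, limma adjusted p = 0.463) and the synthesis gene NCED3 (0.27 ± 0.18, limma adjusted p = 0.31) did not pass.

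Markers of cell types also moved with drying, where 12.2% of all loci rose and 11.5% fell. Of 7 measured leaf markers 3 rose and 0 fell: SBPASE by 0.53 ± 0.12, GLK1 by 0.50 ± 0.08 and PSBO1 by 0.28 ± 0.09. With Got-22 left out PSBO1 no longer passed (limma adjusted p = 0.0781). All 4 phloem markers fell (APL, SUC2, SWEET11 and SWEET12, by 0.32 to 0.72 on the log2 scale), with list means of 8.22 to 9.07 in the dry groups and 8.79 to 9.33 in the wet groups. SWEET11 lost its call in 22 of 56 settings, 17 of them single arrays left out, SUC2 without Omo2-3 or Tamm-2, and SWEET12 without Bil-5. Of 9 guard cell and stomatal lineage genes, GORK rose and FAMA fell by 0.15 ± 0.04, with list means of 4.56 to 4.98 in the dry groups and 4.59 to 4.89 in the wet groups; FAMA lost its call without Ag-0. Of 10 root markers 0 rose and 1 fell, SHR, by 0.32 ± 0.07. The part of a shift in cell types in the phosphatase changes was not tested.

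Phosphatases 2C outside clade A were sought by name in the gene table, which named 4 of the measured loci. PLL4, of another clade, fell by 0.83 ± 0.11 (limma adjusted p = 3.93e-06). PP2C74 (0.17 ± 0.07, limma adjusted p = 0.0657), PP2CG1 (-0.00 ± 0.08, limma adjusted p = 0.989) and PP2C5 (0.01 ± 0.03, limma adjusted p = 0.895) did not pass. With 4 loci found, these are no account of the wider phosphatase family.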

How the data were processed

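Rosette leaf RNA was hybridised to 41 arrays as biotin-labelled cRNA, per the labels' protocols. The authors deposited normalized log2 values, 1 per locus and array, with RMA and MAS5 listed by name, no role or version, among the tools of the submitters' processing notes; the log2 scale itself was inferred from the range, 3.35 to 14.30. The sources used here do not give the array design, the probe filter or the genome build. No locus was removed and nothing was normalized further; 0 columns belonged to other samples. A gene table for TAIR10.1 gave the symbols (20972 loci matched). Precision is limited by the number of arrays, since no counts underlie the values.

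Limma 3.58.1, under R 4.3.3, estimated 14 group means from the 41 arrays (27 residual and 2.06 prior degrees of freedom). Contrasts were the mean over 7 accessions of dry minus wet, the same within accessions, F tests (6 numerator degrees of freedom) for interaction and accession, and each accession against the other 6. Benjamini-Hochberg adjustment ran over 21164 loci, with two-sided tests. Permutation tests used Python 3.11.15 and numpy 2.4.6. Scripts were tested on simulated data. Alternatives were other normalizations, filters, priors, weights and blocks, and leaving out arrays or accessions.

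The 9 phosphatases and the 11 pathway and marker lists (117 entries) were chosen with earlier results of these data known. Besides the 9, the text names list members past the threshold (up to 4 a list by smallest p), RAB18, RD29A, RD29B, NCED3 and OST1 always, the 3 loci most like each phosphatase, and up to 4 other phosphatases 2C. COR15A, PYR1, SnRK2.2, PUB12, SLAC1, and further called markers were chosen after their values were seen.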

Additional observations from a re-analysis of the deposited data

Results flagged for a closer look

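HAB1 had all dry arrays above all wet arrays in 1 accession and all below in others. In Ag-0 the dry arrays read 6.61 and 6.37, against 6.34, 6.14 and 6.34 on wet arrays, a dry minus wet difference of 0.22 ± 0.38 (SE). In Eden-1 they read 6.30, 6.69 and 5.94 in dry soil, against 6.69, 7.34 and 6.79 in wet soil, a difference of -0.63 ± 0.34; the highest dry and lowest wet array there are equal once rounded. In Omo2-3 they read 5.54, 5.78 and 5.75 in dry soil, against 6.20, 6.37 and 6.12 in wet soil, a difference of -0.54 ± 0.34. A difference between these accessions alone was not tested. The F test over all accessions did not call HAB1 (limma adjusted p = 1). The share of all loci with every dry array above every wet array was 15.3% in Ag-0, and the share with every dry array below was 7.63% in Eden-1 and 9.51% in Omo2-3.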

How the results depend on the processing

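The rises of PP2CA, HAI2 and HAI1 kept their direction and their call in all 56 alternative settings (limma adjusted p of up to 1.51e-05, 0.0312 and 0.0159), and the interaction called 0 phosphatases in all 55. Other counts rested on few arrays. The count of phosphatases that fell (1) was 0 with Omo2-3, Eden-1, Ull2-5, Got-22 or Tamm-2 left out, 2 without Ag-0 or with array quality weights, and 0 to 2 with 1 array left out. Calls within accessions (2) were 7 with array quality weights, 0 in fits of each accession on its own arrays and 1 to 5 with 1 array left out. Phosphatases with an accession effect (2) were 8 with array quality weights, 0 without Omo2-3, on wet arrays only or on dry arrays only, and 1 to 5 with 1 array left out. Calls of an accession against the other 6 (4) were 9 with array quality weights and 1 to 6 with 1 array left out; HAB1 and HAB2 in Omo2-3 lost theirs without 5 and 4 single arrays (limma adjusted p of up to 0.0726 and 0.0788), and PP2CA in Tamm-2 without 7 (up to 0.178). The drying difference of ABI2 was -0.0033 with array quality weights (limma adjusted p = 0.985). The share of all loci called with array quality weights was not computed, so the counts under that setting are not read as a trait of the family. The cause of these shifts was not tested.

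Among paralogs, ABI1 minus ABI2 no longer passed without Bil-5 (-0.20, permutation adjusted p = 0.0665), Got-22 (-0.20, 0.0669), Ull2-5 (-0.19, 0.0784) or Tamm-2 (-0.10, 0.256), and ran from -0.24 to -0.19 with 1 array left out, where it no longer passed without Eden-1 wet replicate 1 (0.0512) or Eden-1 dry replicate 2 (0.0589). HAI1 minus HAI2 no longer passed without Bil-5 (-0.26, 0.0665). HAB1 minus HAB2 passed without Omo2-3 (-0.22, permutation adjusted p = 0.0298) and ran from -0.21 to -0.094 with 1 array left out, where it also passed without Got-22 dry replicate 1 (0.0317) or Ag-0 dry replicate 2 (0.0367). Correlated pairs (21) numbered 15 to 29 over 52 settings, with 15 without Tamm-2. Of 36 list genes called for drying, 23 kept their call in every setting run.

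Of 20 same-number pairs of dry and wet samples, 10 had a correlation of deviations over 0.1, with a range of -0.493 to 0.544. These 10 include every pair of Eden-1 (0.117 to 0.544), Ull2-5 (0.147 to 0.37) and Ag-0 (0.17 and 0.531). The pairs of Tamm-2 were above 0 too (0.386, 0.0904 and 0.213). Bil-5, Got-22 and Omo2-3 had none over 0.1, so the numbers were not taken to pair the samples. The correlations between phosphatases were permuted inside each group, which leaves a pairing inside single accessions out of account. With replicate number in the limma model, as effects shared by all accessions, the drying counts were 3 and 1 as before. Such shared effects cannot take up a pairing inside single accessions. The permutation was also run with labels swapped only within same-number pairs of an accession, without the unpaired Ag-0 wet replicate 1. There ABI1 minus ABI2 was -0.20 (permutation adjusted p = 0.0558). Leaving out a dry Ag-0 array leaves 1 array there, which is assumed to vary like the other groups. HAI2, HAI3 and AHG1 lie near the array floor, which limits the falls that could be seen.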

Other observations

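Among the pathway genes, some tracked the phosphatases between arrays of a group whatever drying did to their mean. ABF3 fell with drying by 0.57 ± 0.13 (limma adjusted p = 0.00236), and its deviations from group means had r = 0.82 with ABI1 and 0.67 with PP2CA, the phosphatase that rose the most. RD22, which fell by 0.56 ± 0.13, had r = 0.70 with ABI1. RD29A, which did not pass for drying, had r = 0.71 with ABI1, 0.70 with HAI2 and 0.67 with PP2CA. The ubiquitin ligase gene PUB12 had r = 0.73 with PP2CA and 0.67 with ABI1, while its signal averaged 4.64 on dry arrays and 4.72 on wet arrays. OST1, which rose with drying, had r = 0.61 with ABI1 and 0.59 with PP2CA but 0.28 with HAI2. These are descriptions over 41 arrays chosen after their values were seen, without a test.

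Several receptors leaned the other way from HAI2 between arrays of a group. The deviations of PYL5, PYL8, PYR1 and PYL4 had r = -0.61, -0.59, -0.56 and -0.52 with HAI2, where 1.54% of all loci had r of -0.5 or below with it. Of these PYL5 and PYL8 fell with drying. PYL9 had r = 0.45 with ABI1 and 0.10 with HAI2.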
